A study of Mus musculus with 4 samples.

Results

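The 9 genes described here encode transcription factors and cofactors that set or oppose the T follicular helper (Tfh) fate of CD4+ T cells: Bcl6, Prdm1, Maf, Tox, Tox2, Ascl2, Pou2af1, Id2 and Id3. They were taken by gene name from a deposited table of 54532 genes, and all 9 were found as protein-coding genes. The libraries are bulk RNA-seq of wild-type mouse CD4+ T cells from spleen, naive at the start and kept for 3 days in Tfh-polarizing culture. The DMF group (2 libraries) was cultured with dimethyl fumarate, a fumaric acid ester known to activate the transcription factor Nrf2, and the control group (2 libraries) without it. The sources used here do not give the dose of DMF, the age of the mice, or whether replicates came from separate mice or cultures, so p-values measure only the spread between these libraries, which may be technical. The title of the series names Tfh differentiation and Nrf2, and the comparison of DMF with control asks how DMF bears on the transcripts of cells under Tfh conditions.

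Tfh cells enter B cell follicles and help B cells form germinal centres. Bcl6 is a zinc finger repressor required for that fate, and Blimp-1, the product of Prdm1, represses Bcl6 and is repressed by it. Maf drives cytokine genes of helper cells such as Il21 and Il4. Tox and Tox2 are high mobility group proteins, and Tox2 is known in mouse T cells to act with Bcl6. Ascl2 is a basic helix-loop-helix factor that raises the homing receptor Cxcr5, and Pou2af1 encodes OCA-B, a cofactor of Oct proteins first known from B cells. Id2 and Id3 bind E proteins, the partners of Ascl2, and keep them off DNA, and both are known to restrain Tfh differentiation in mice.

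Of the 9 genes, Bcl6, Maf, Tox, Tox2 and Pou2af1 had more RNA in each DMF library than in either control, by 1.71 to 2.63 times in mean FPKM (fragments per kilobase of gene length, which the authors scaled to library size). Id3 and Id2, the restraining factors with the highest levels, did not separate the groups, since the control libraries lay on either side of the DMF libraries. Prdm1 was near the limit of detection, with 41 and 21 reads in the DMF libraries and 11 and 2 reads in the controls. Ascl2 had 10 and 2 reads in the DMF libraries and 4 and 5 reads in the controls, and its groups overlapped. The plot of FPKM by library shows these patterns.

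**Figure D1:**
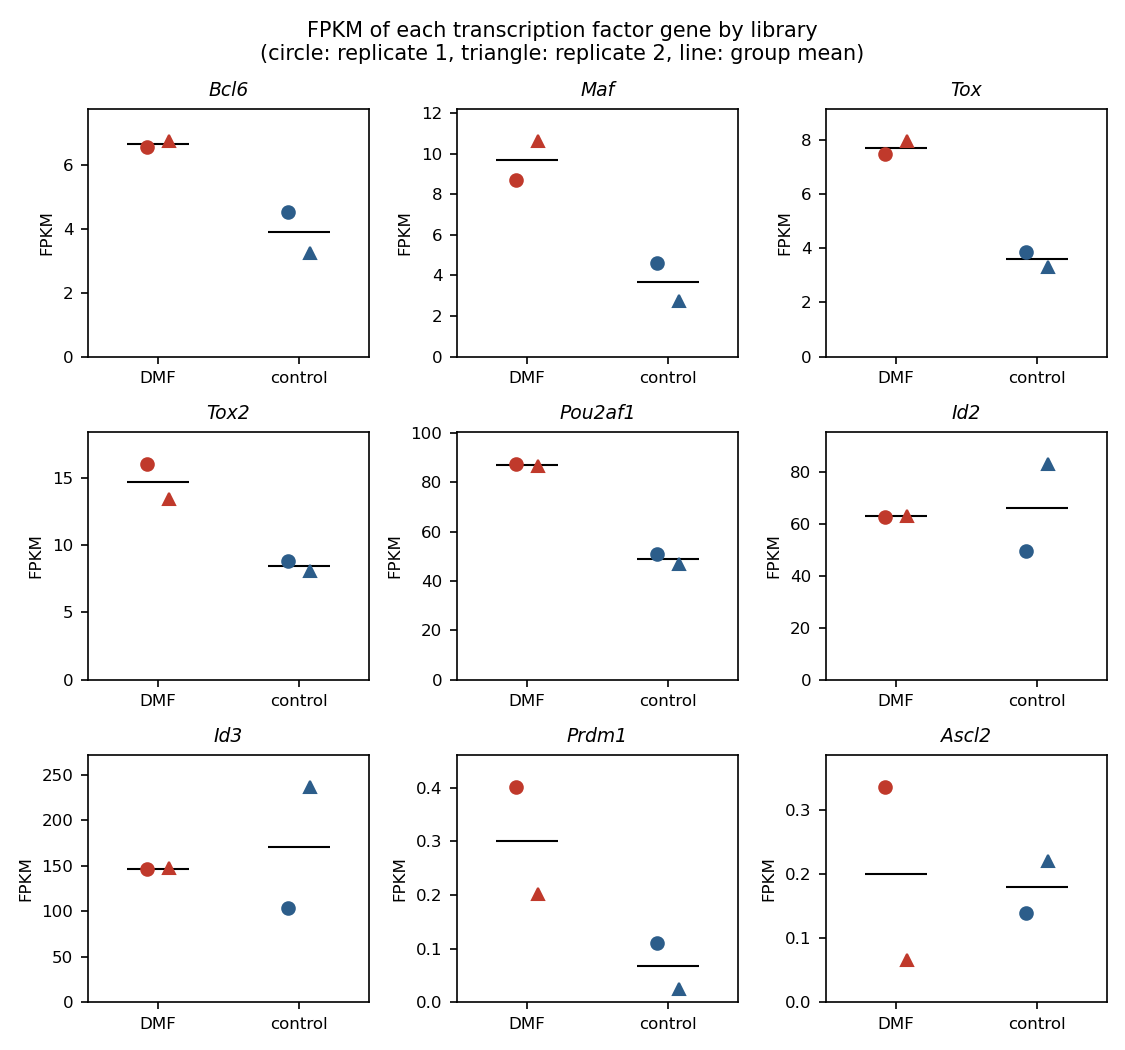
FPKM (y axis, from 0) of each of the 9 genes in the DMF libraries (left) and the control libraries (right); circles are replicate 1, triangles replicate 2 and lines the group means. Bcl6, Maf, Tox, Tox2, Pou2af1 and Prdm1 lie higher in both DMF libraries, while the controls of Id2 and Id3 lie on both sides of the DMF libraries.

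The test was limma on log2(FPKM + 1), DMF minus control, fitted over the 12166 genes whose mean FPKM reached 1, with Benjamini-Hochberg adjustment over all of them. It called 0 genes at an adjusted p under 0.05 (0% of tested genes, lowest adjusted p = 0.128), with 1150 at an unadjusted p under 0.05. limma's voom on whole reads worked out from the FPKM also called 0 of these genes, with 1187 at an unadjusted p under 0.05. None of the 7 tested factors passed, while Prdm1 and Ascl2 lay under the level filter. The 7 tested factors had at least 2.75 FPKM in every library, so none of them passed the filter through a single group. Both DMF libraries lay above both controls in 5 of these 7 and below both in 0, where 26.4% of tested genes lay above and 26.8% below. Those 5 also had an unadjusted limma p under 0.05 with DMF higher, which 3.14% of tested genes had. The median difference was 0.73 over the 7 factors and -0.01 over the 12166 genes. As the factors were chosen with earlier results of these data known, this contrast of counts carries no test.

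Libraries held 17134385 and 17516953 reads in genes in the DMF group, against 17171199 and 15900118 in the control group. Control replicate 2 stood apart: the SD over genes of the log2 difference was 0.847 and 0.849 between the DMF libraries and control replicate 2, against 0.461 and 0.453 between the DMF libraries and control replicate 1, and 0.316 between the DMF libraries themselves. Without control replicate 2, limma called 1007 genes (8.28% of tested genes), among them 4 of the factors, and without control replicate 1 it called 7420 (61%), among them all 7 tested factors. In such fits the lone control is assumed to vary like the DMF group, so for single genes only differences are given from them below. The 4 factors of the fit without control replicate 2 included Id2 and Id3, which differed upward there and downward without control replicate 1. Of Bcl6, Maf, Tox, Tox2 and Pou2af1, limma called only Tox and Pou2af1 without control replicate 2. Without DMF replicate 1 or 2 it called 8 and 6 genes and 0 factors.

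Bcl6 (ENSMUSG00000022508, GRCm38 chromosome 16, 23965052 to 23988852, minus strand) was at 6.58 and 6.75 FPKM in the DMF libraries, against 4.55 and 3.24 FPKM in the controls. These values rest on 807 and 845 reads in the DMF libraries and on 540 and 302 in the controls. The DMF libraries lay close together and above both controls, which lay further apart. On the log2 scale the difference was 0.66 ± 0.21 (SE, limma adjusted p = 0.496, n = 2 per group), and 7.06% of tested genes had a difference at least as high. It was 0.86 with a limma adjusted p of 0.00552 without control replicate 1, and 0.47 with 0.073 without control replicate 2, and its adjusted p spanned 0.00552 to 1 over 14 alternatives. In bulk RNA, more transcript per cell and more cells that express a gene cannot be told apart, for Bcl6 or any gene below.

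Promoter windows of 250 bases before a RefSeq start site (GRCm38.p6) are shown for Bcl6, at both of its listed starts, and for Pou2af1, as the windows of the higher factors that hold a STAT or antioxidant response element match. Capitals mark matches to the palindromic STAT motif TTCNNNGAA or to TGACNNNGC, the core of the antioxidant response element bound by Nrf2, searched on both strands. The Bcl6 window at the upstream start is chr16:23988853-23989102, minus strand.
Bcl6 upstream start: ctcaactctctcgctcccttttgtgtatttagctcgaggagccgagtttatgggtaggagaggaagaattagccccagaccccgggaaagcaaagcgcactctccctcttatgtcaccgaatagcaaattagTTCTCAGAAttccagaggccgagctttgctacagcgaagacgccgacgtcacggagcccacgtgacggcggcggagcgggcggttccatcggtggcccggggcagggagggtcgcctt
The window at the downstream start, inside the gene and outside its annotated exons, is chr16:23981284-23981533, minus strand.
Bcl6 downstream start: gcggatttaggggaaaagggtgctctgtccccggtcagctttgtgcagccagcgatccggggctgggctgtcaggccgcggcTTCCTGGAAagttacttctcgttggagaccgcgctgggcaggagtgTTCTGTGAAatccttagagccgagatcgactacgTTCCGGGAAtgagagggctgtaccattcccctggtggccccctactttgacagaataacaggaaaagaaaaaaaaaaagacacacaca
The Pou2af1 window is chr9:51213440-51213689, plus strand.
Pou2af1: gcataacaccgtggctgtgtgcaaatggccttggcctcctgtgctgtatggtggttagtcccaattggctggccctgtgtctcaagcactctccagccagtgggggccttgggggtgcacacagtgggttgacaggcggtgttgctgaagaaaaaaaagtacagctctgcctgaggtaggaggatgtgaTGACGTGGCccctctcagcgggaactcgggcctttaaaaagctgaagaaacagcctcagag
The upstream Bcl6 window holds 1 STAT match and the downstream window 3, of which TTCCTGGAA also matches TTCCTNGAA, a Bcl6 motif whose every match is a STAT match too. A STAT match stands in 7.02% of 32851 such mouse windows, 3 or more in 0.0274%, and a TTCCTNGAA match in 1.31%. The Pou2af1 window holds 1 match to TGACNNNGC, which 10.2% of windows have. The E-box CAGNTG, a form bound by E proteins, stands in 44.8% of windows and in 4 of the 12 windows listed for 7 of the 9 genes. RefSeq windows were matched for Ascl2, Bcl6, Id2, Id3, Pou2af1, Prdm1 and Tox2. A match describes letters in the window and is not evidence of binding in these cells.

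Prdm1 (ENSMUSG00000038151, chromosome 10, 44437177 to 44528501, minus strand) was at 0.402 and 0.202 FPKM in the DMF libraries, against 0.111 and 0.0257 FPKM in the controls. All values were low, and both DMF libraries lay above both controls, as did 23.7% of the 6734 genes under the level filter with at least 10 reads. Summed over a group and scaled to library size, the 62 reads of the DMF libraries and the 13 of the controls gave a ratio of 4.08, with an exact 95% interval of 2.22 to 8.09 that covers counting error only. limma's voom over the 18809 genes with at least 10 reads, a fit added once the data had been seen, gave a difference of 2.37 on the log2 scale with an adjusted p of 0.501 (unadjusted p = 0.0453), and it called 0% of those genes. The median over all genes in that fit was 0.195, not 0. Prdm1 thus lay on the same side as Bcl6, the gene its product represses. The ratio of Bcl6 to Prdm1 FPKM was 16.4 and 33.5 in the DMF libraries, against 40.9 and 126 in the controls. Those ratios did not overlap, but each rests on few Prdm1 reads, and with 0.1 added to each FPKM their log2 difference was -0.47 in place of -1.61. It was -2.42 when control replicate 1 was left out and -0.80 when control replicate 2 was.

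Maf (ENSMUSG00000055435, chromosome 8, 115682942 to 115707794, minus strand) had the largest difference of the 7 tested factors. It was at 8.71 and 10.6 FPKM in the DMF libraries, against 4.61 and 2.75 FPKM in the controls. Each group spread over a range, but the lowest DMF value lay well above the highest control value. The difference was 1.21 ± 0.27 (SE, n = 2 per group, limma adjusted p = 0.331), and 1.27% of tested genes had a difference at least as high. The difference was 1.5 when control replicate 1 was left out and 0.92 when control replicate 2 was left out. The ratio of Maf to Bcl6 FPKM was 1.32 and 1.57 in the DMF libraries, against 1.01 and 0.851 in the controls. The exact two-sided permutation test over libraries gave p = 0.333 for it, the smallest that 2 against 2 libraries allow. Maf was thus more abundant than Bcl6 per length of gene in both DMF libraries, while the controls lay on either side of equal levels.

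Tox (ENSMUSG00000041272, chromosome 4, 6686353 to 6991557, minus strand) was at 7.47 and 7.95 FPKM in the DMF libraries, against 3.88 and 3.32 FPKM in the controls. Replicates lay close in each group and the groups did not overlap. The difference was 0.92 ± 0.18 (SE, n = 2 per group, limma adjusted p = 0.279), the smallest p among the 7 tested factors, and 2.85% of tested genes had a difference at least as high. It passed without control replicate 1 (1.01, adjusted p = 0.00432) and without control replicate 2 (0.84, adjusted p = 0.0358), with a range of 0.00432 to 1 over 14 alternatives. Its relative Tox2 (ENSMUSG00000074607, chromosome 2, 163203125 to 163324170, plus strand) was at 16.1 and 13.4 FPKM in the DMF libraries, against 8.84 and 8.08 FPKM in the controls. Tox2 also lay higher in both DMF libraries, by 0.73 ± 0.19 (SE, limma adjusted p = 0.389). Without control replicate 1 its adjusted p was 0.0147 at a difference of 0.79, and without control replicate 2 it did not pass, with 0.0717 at a difference of 0.67 (0.0147 to 1 over 14 alternatives). Tox2 was the more abundant of the pair in every library, with a Tox to Tox2 ratio of 0.465 and 0.592 in the DMF libraries and 0.439 and 0.411 in the controls. With a gene length trend removed from each library, the log2 difference of that ratio was -0.11 in place of 0.31. Tox4, a relative outside the 9, was at 23.2 and 22.9 FPKM in the DMF libraries and 24.2 and 20.1 in the controls, while Tox3 had at most 5 reads in any library. Tox4 and Tox3 are named as relatives of Tox and were chosen after their values were seen.

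Pou2af1 (ENSMUSG00000032053, chromosome 9, 51213708 to 51240080, plus strand), whose promoter is shown above, was at 87.5 and 86.7 FPKM in the DMF libraries, against 50.8 and 46.7 FPKM in the controls. It had the tightest replicates of the higher factors and the groups lay far apart against that spread. The difference was 0.83 ± 0.19 (SE, n = 2 per group, limma adjusted p = 0.360), and 3.79% of tested genes had a difference at least as high. Without control replicate 1 the difference was 0.89, and without control replicate 2 it was 0.77. B cells can also express Pou2af1 and Bcl6, and B cell markers were present in all libraries. Of 14 such markers, 10 were above both controls in each DMF library, 1 (Ighm) below both, and 3 overlapped. Among the 10 tested markers 6 were above, where 26.4% of tested genes were. Pax5, 1 of these 6, was under 1 FPKM in both controls and passed the level filter through the DMF libraries only. The other 4 of the 14, under the level filter, were all above, where 23.7% of genes with at least 10 reads under the filter were. These counts carry no test. The ratio of Pou2af1 to Cd79a, a chain of the B cell receptor, was 8.45 and 9.96 in the DMF libraries, against 13.3 and 7.52 in the controls, and the groups overlapped. The ratio of Pou2af1 to Spib, a transcription factor gene of B cells, was 14.3 and 14.2 in the DMF libraries, against 20.7 and 16.1 in the controls. That ratio was lower in each DMF library than in either control. The ratio of Bcl6 to Cd79a was 0.636 and 0.775 in the DMF libraries, against 1.19 and 0.521 in the controls. The summed level of the 14 markers was 235.5 and 235.8 FPKM in the DMF libraries, against 165.2 and 328.4 FPKM in the controls, and no marker was at 0 in any library. The 3 markers with the highest levels, none of them above both controls, made up 202 and 203 FPKM of that sum in the DMF libraries, against 151 and 310 FPKM in the controls. The other 11, of which 10 were above both controls, summed to 33.7 and 33.1 FPKM in the DMF libraries, against 14 and 18.1 FPKM in the controls. The part of B cell RNA in the levels of Pou2af1 and Bcl6 was not tested.

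Id3 (ENSMUSG00000007872, chromosome 4, 136143497 to 136145755, plus strand) had the highest level of the 9 genes. It was at 147 FPKM in both DMF libraries, against 104 and 237 FPKM in the controls. Id2 (ENSMUSG00000020644, chromosome 12, 25093799 to 25097140, minus strand) was at 62.9 and 63.3 FPKM in the DMF libraries, against 49.5 and 83.2 FPKM in the controls. For both genes the DMF libraries agreed closely and lay between the controls, with control replicate 2 the highest library of all. The difference was -0.10 ± 0.45 for Id3 and -0.03 ± 0.31 for Id2 (SE, n = 2 per group, limma adjusted p = 0.921 and 0.971). The direction followed the control used. Without control replicate 2, Id3 differed by 0.49 and Id2 by 0.34. Without control replicate 1, Id3 differed by -0.68 and Id2 by -0.39. Both also turned positive under quantile normalization, with a gene length trend removed and in voom. The ratio of Id3 to Id2 FPKM was 2.33 in both DMF libraries, against 2.10 and 2.84 in the controls (exact two-sided permutation test, p = 1). The ratio of Bcl6 to Id2 was 0.105 and 0.107 in the DMF libraries, against 0.0919 and 0.0389 in the controls. The log2 difference of that ratio was 0.82, with 1.44 without control replicate 1 and 0.20 without control replicate 2.

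**Figure D2:**
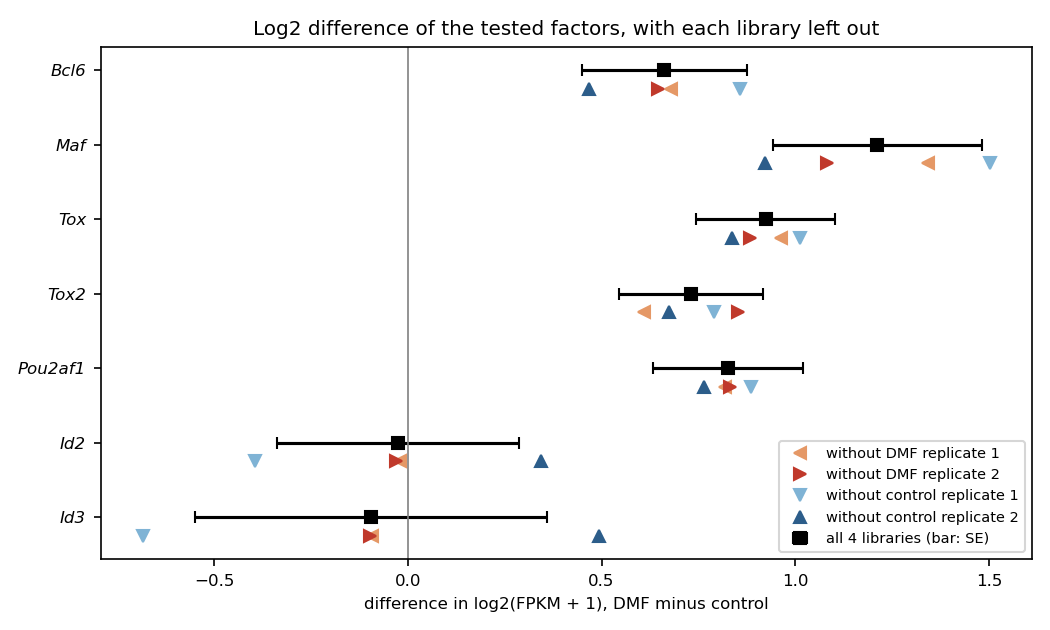
Difference in log2(FPKM + 1), DMF minus control (x axis), of the 7 tested factors; squares with bars are all 4 libraries with the SE, and triangles are the fits with 1 library left out. Bcl6, Maf, Tox, Tox2 and Pou2af1 stay above 0 in each fit, while Id2 and Id3 lie above 0 without control replicate 2 and below 0 without control replicate 1.

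Ascl2 (ENSMUSG00000009248, chromosome 7, 142966829 to 142969264, minus strand) was at 0.337 and 0.066 FPKM in the DMF libraries, against 0.139 and 0.221 FPKM in the controls. The 12 reads of the DMF libraries and 9 of the controls gave a scaled ratio of 1.14 with an exact 95% interval of 0.441 to 3.07, so a difference was not detectable at this depth. Cxcr5, the receptor gene that Ascl2 activates in mouse T cells, was at 2.05 and 1.82 FPKM in the DMF libraries, against 1.13 and 0.991 FPKM in the controls.

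In order of FPKM, the DMF libraries ran Id3, Pou2af1, Id2, Tox2, Maf, Tox, Bcl6, Prdm1 and Ascl2, and neighbours overlapped between libraries only for Prdm1 and Ascl2. By mean FPKM the controls ran Id3, Id2, Pou2af1, Tox2, Bcl6, Maf, Tox, Ascl2 and Prdm1. There, Id2 and Pou2af1 overlapped, as did Bcl6, Maf and Tox. Maf was thus ahead of Bcl6 in the DMF libraries and overlapped it in the controls. Genes annotated over the members took few reads: 28 and 37 reads in the DMF libraries and 16 and 0 in the controls for Gm47828, inside Pou2af1, and at most 8 in any library for Gm37419 over Bcl6, Gm11802 over Tox and Gm15655 over Maf. Whether counting used strand is not given in the sources used here.

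**Figure D3:**
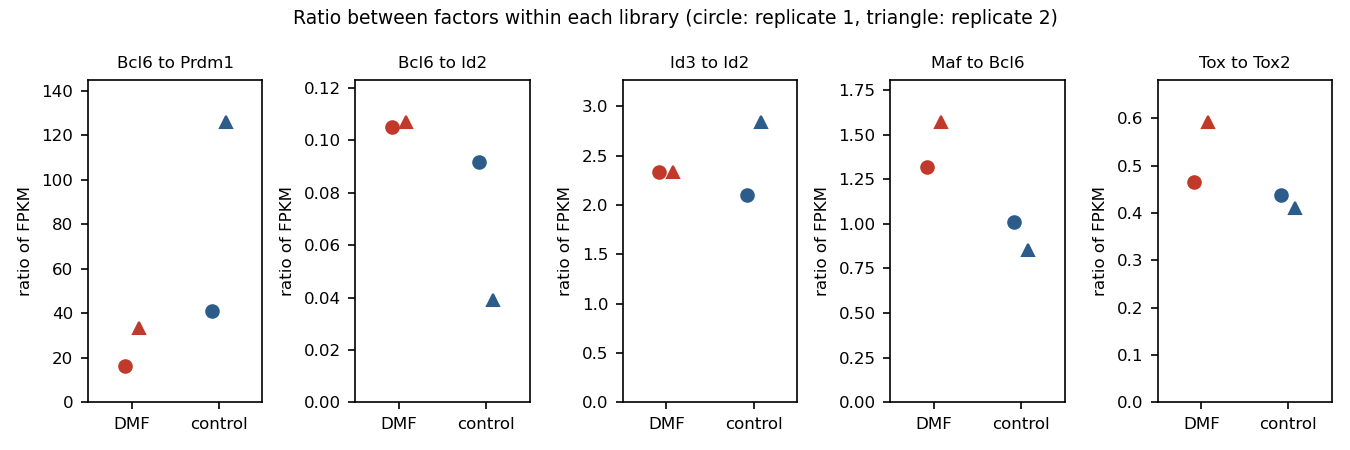
Ratio of FPKM between 2 of the factors within each library (y axes, from 0), with the DMF libraries on the left and the controls on the right; circles are replicate 1 and triangles replicate 2. Maf to Bcl6, Bcl6 to Id2 and Tox to Tox2 are higher in both DMF libraries, Bcl6 to Prdm1 is lower in both, and Id3 to Id2 overlaps.

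Among the 7 tested factors, likeness was measured as the Euclidean distance between mean-centred log2(FPKM + 1) values over the 4 libraries, where 0 is an identical profile. Tox and Pou2af1 were closest, at 0.124, and Maf and Id3 furthest apart, at 1.81. Outside the 9, the profiles closest to Bcl6 included those of Bend3 (0.0183) and Azin1 (0.0316), and 239 genes lay within 0.2 of it. For Tox they were Tiparp (0.0143), Etv4 (0.039) and Pax5 (0.0514), with 20 genes within 0.2, and for Maf they were Synpo (0.108), Arhgap31 (0.175) and Snord93 (0.197), with 3 genes within 0.2. With 4 libraries, many genes had this kind of likeness to Bcl6, while few had it to Maf.

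The genes around the factors were read from 9 lists, none of whose members passed in limma. A list's count of genes above or below both controls is read against 26.4% and 26.8% of tested genes, and against 23.7% and 18.1% of the genes with at least 10 reads under the level filter. The lists were written with earlier results of these data known, so their counts carry no test. Genes that Bcl6 is known to repress in mouse Tfh cells lay mostly lower with DMF. Of these 11 genes, 9 were below both controls in each DMF library and 1 (Rora) above, where 26.8% of tested genes lay below and 26.4% above. Their median difference was -1.14. Il7r, 1 of the 9, was under 1 FPKM in both DMF libraries and passed the level filter through the controls only. Ccr7, the receptor that holds T cells in the T cell zone, was at 117 and 121 FPKM in the DMF libraries, against 318 and 517 FPKM in the controls (-1.76 ± 0.34, SE, n = 2 per group, limma adjusted p = 0.279). It passed without control replicate 1 (-2.11, adjusted p = 0.00134) and without control replicate 2 (-1.41, adjusted p = 0.0165), with a range of 0.00134 to 1 over 14 alternatives. S1pr1, Il7r and Runx3, the other named genes of that list, differed by -2.20, -2.05 and -1.14. Il7r, S1pr1, Klf2, Ccr7 and Selplg are also genes of resting naive T cells, and Runx3 is expressed by cytotoxic cells. Of 7 CD8 T and NK cell markers, 4 lay below both controls (3 of the 3 tested, where 26.8% of tested genes did). The other 3 overlapped, with Ncr1 and Klrb1c at 0 reads in all libraries. Of the 3 tested, Cd8a and Klrd1 were under 1 FPKM in both DMF libraries. They passed the level filter through the controls only, so that count carries no test. The summed level of the 7 markers was 2.99 and 2.92 FPKM in the DMF libraries, against 12.9 and 21.4 FPKM in the controls. The part of these markers' cells in the levels of Runx3, Prdm1, Id2 or Tox was not tested.

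Of the 8 factors known to raise Bcl6 or early Tfh genes, 2 lay above and 4 below both controls, against 26.4% and 26.8% of tested genes. Their median was -0.13, with -0.05 without control replicate 1 and -0.24 without replicate 2 of the controls. Nfatc1, which carries the calcium signal of the antigen receptor, was at 66.9 and 64.7 FPKM in the DMF libraries, against 45.2 and 28.8 FPKM in the controls. Tcf7, which encodes TCF-1, was at 159 and 155 FPKM in the DMF libraries, against 325 and 271 FPKM in the controls, and Batf also lay below both. Of the 8 restraining factors, 2 also lay above and 4 below, with a median of -0.18, which was -0.02 when control replicate 1 was left out and -0.35 when control replicate 2 was. Klf2, which drives S1pr1, was at 20.6 and 20.2 FPKM in the DMF libraries, against 45 and 81.2 FPKM in the controls. Gata3 and Stat5a, also restraining factors, differed by -0.47 and -0.34. In both lists the 2 of 8 above is near the share of all tested genes, so it is no result about either list.

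Of the 14 surface and cytokine genes of Tfh cells, 4 lay above and 7 below both controls, 1 of the 7 (Il4) under the level filter, where 26.4% of tested genes lay above and 26.8% below, and the median over the 13 tested was -0.15. The 4 above are near the share of all tested genes. Il6ra, which encodes the receptor of interleukin 6, was at 5.08 and 5.58 FPKM in the DMF libraries, against 13 and 7.92 FPKM in the controls. Sh2d1a, which encodes the adaptor SAP, was at 0.754 and 0.807 FPKM in the DMF libraries, against 1.69 and 3.56 FPKM in the controls. Sh2d1a passed the level filter through the controls only. Il6ra and Sh2d1a lay below both controls, while Pdcd1 lay above. Pdcd1, which encodes PD-1, was at 136 and 140 FPKM in the DMF libraries, against 80.7 and 100.3 FPKM in the controls. Genes that Maf is known to activate did not lie with Maf. Il21 was at 9.17 and 10.8 FPKM in the DMF libraries, against 31.2 and 25.5 FPKM in the controls, Icos and Il4 also lay below both controls, and Il10, the remaining gene of the 4, overlapped. Il4 had 3 reads in each DMF library, against 9 and 26 in the controls. Of the 4 genes repressed by Blimp-1, Cxcr5 and Bach2 lay above, Tcf7 below, and Il2 overlapped, in a list too short to set against the 26.4% and 26.8% of tested genes. Their median of 0.08 turned to -0.11 without control replicate 1 and was 0.21 without control replicate 2.

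**Figure D4:**
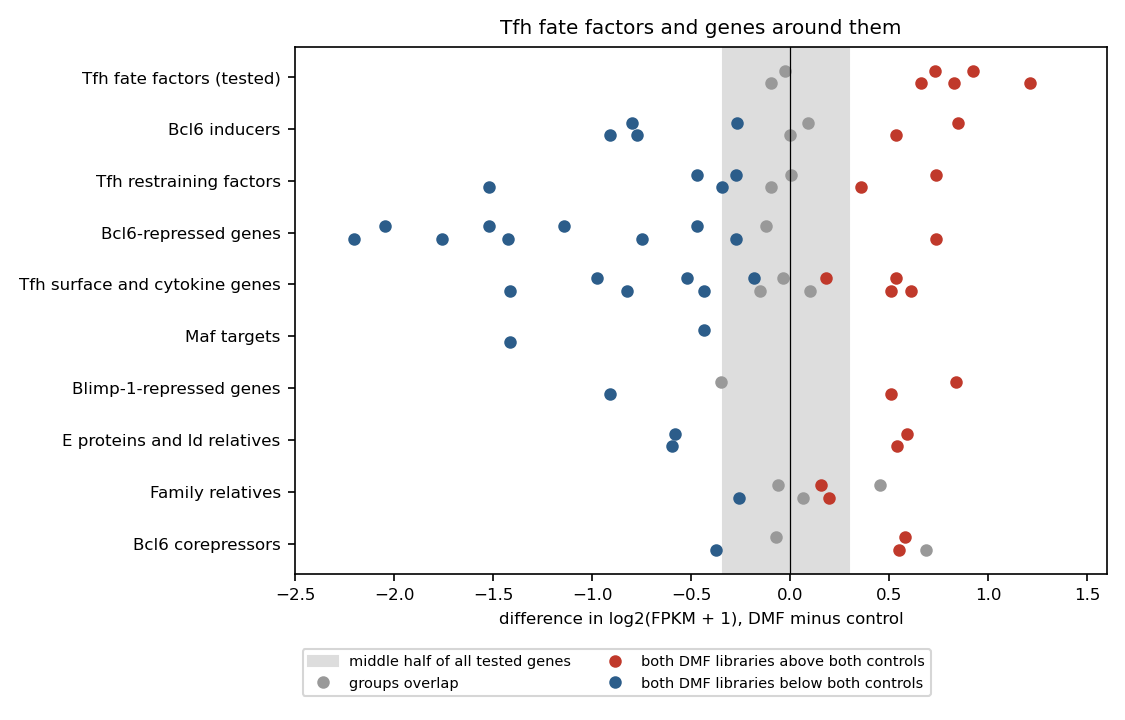
Difference in log2(FPKM + 1), DMF minus control (x axis), of each tested gene in the lists around the factors; red points have both DMF libraries above both controls, blue points below both, grey points overlap, and the grey band is the middle 50% of all tested genes, from -0.34 to 0.30. Bcl6-repressed genes lie mostly to the left of the band and 5 of the 7 tested factors to its right.

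Of the 5 E proteins and Id relatives, Tcf12 and Tcf4 lay above both controls, Tcf3 and Id1 below, and Id4 overlapped, against 26.4% of tested genes above and 26.8% below. The difference of Tcf4 was 0.54, and -0.01 with a gene length trend removed. Tcf4 averaged 0.98 FPKM in the controls and passed the level filter through the DMF libraries, so its place in that count carries no test. Tcf3, which encodes E2A, was at 25.8 and 24.4 FPKM in the DMF libraries, against 35.7 and 40.6 FPKM in the controls. Of the 10 relatives of Bcl6, Maf, Tox, Ascl2 and Pou2af1, with the Oct partners of Pou2af1, 4 lay above, 3 below and 3 overlapped, and 2 of the 6 tested lay above and 1 below, against 26.4% and 26.8% of tested genes. The median of those 6 was 0.11, with 0.18 without control replicate 1 and 0.06 without replicate 2 of the controls. The small Maf genes Mafg and Mafk, which encode partners of Nrf2, differed by 0.19 and 0.16, and Pou2f2, which encodes Oct-2, by -0.26. For Pou2f2 the difference was -0.11 when control replicate 1 was left out and -0.41 when control replicate 2 was. Bcl6b, the closest relative of Bcl6, had 13 and 5 reads in the DMF libraries and 0 in each control, and was chosen after its values were seen. Of the 5 corepressors of Bcl6, 2 lay above, among them Bcor, 1 below (Mta3) and 2 overlapped, against 26.4% and 26.8% of tested genes above and below. Their median was 0.55, with 0.96 without control replicate 1 and 0.09 without control replicate 2.

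T cell markers were abundant in every library. The 8 T cell markers summed to 1315 and 1317 FPKM in the DMF libraries, against 1438 and 1946 FPKM in the controls, with 6 below both controls and 2 overlapping, where 26.8% of tested genes lay below. Cd4 was at 103 and 100.3 FPKM in the DMF libraries, against 128 and 105 FPKM in the controls. The 5 plasma cell markers, which go with Prdm1, summed to 26 and 25.9 FPKM in the DMF libraries, against 27.2 and 44.1 FPKM in the controls, with 1 above, 2 below and Tnfrsf17 at 0 throughout. The 7 myeloid markers summed to 3.13 and 1.21 FPKM in the DMF libraries, against 4.32 and 7.04 FPKM in the controls, with 0 above and 4 below. Of all tested genes, 26.4% lay above and 26.8% below. Of genes under the level filter with at least 10 reads, 23.7% lay above and 18.1% below. Of the 4 myeloid markers below, Lyz2 and Cd14 averaged under 1 FPKM in the DMF group. They passed the filter through the controls, so that count carries no test. The part of T, plasma and myeloid cells in the levels of the factors was not tested.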

How the data were processed

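Per the labels' protocols, the 4 libraries were made from total RNA and read on an Illumina HiSeq2000. Per the file headers, the authors deposited 1 table of FPKM per gene and library, with each gene's name, position and length. The submitters' processing notes name the build mm8, and edgeR with no role stated. Of 54409 gene identifiers found in GENCODE M21 (GRCm38), 98.33% stand at identical positions in the deposited table, and positions are therefore named as GRCm38. The sources used here do not name the aligner or the counting program.

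FPKM times gene length gave whole multiples of a fixed step for 100% of values above 0, within 0.01, which recovers reads per gene. The FPKM imply library sizes of 18302380 and 18672223 in the DMF group, against 17725674 and 13929627 in the control group, which is the read total times 1.07 for each DMF library, 1.03 for control replicate 1 and 0.876 for control replicate 2. Depth limits low genes: Prdm1 rests on 2 to 41 reads a library and Ascl2 on 2 to 10.

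limma 3.58.1 (lmFit, eBayes with a variance trend, R 4.3.3) was run on log2(FPKM + 1), two-sided, over genes whose mean FPKM was 1 or more, with a threshold of 0.05. The scale understates changes of low genes. FPKM is no count, so a count test was not the main test. Alternatives were a pseudocount of 0.1, no filter, a mean FPKM of at least 5, quantile normalization, a trimmed mean of log ratios, no variance trend, voom on recovered reads, removal of a gene length trend (loess, span 0.3), a replicate block, and fits without each library. A voom fit over genes with at least 10 reads was added after the data were seen. Functions were tested on simulated reads.

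The 9 factors and the 14 gene lists, written from general knowledge of Tfh biology, were chosen with earlier results of these data known. Named genes are the 9 factors, up to 4 tested genes with the smallest p in each list that is not a marker list, and the 3 tested genes with the profile closest to Bcl6, Maf and Tox, leaving out predicted genes, pseudogenes and receptor segments. Any other gene named was chosen with its values in view. A few genes that this rule names are not reported here. Gene lists share genes such as Tcf7, Klf2 and Il21. Promoter sequences are from RefSeq (GRCm38.p6).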

Additional observations from a re-analysis of the deposited data

How the results depend on the processing

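The count of 0 genes past the threshold was 3 with the gene length trend removed and ran from 6 to 7420 with 1 library left out. The count of factors called was 0 with all libraries and ran from 0 to 7 with 1 left out. The count of tested factors with DMF above control was 5, or 5 to 7 over 14 alternatives. With all libraries, 26.4% of tested genes lay above. The 7 came under quantile normalization and without control replicate 2, where 29.7% and 43.4% of tested genes lay above. The count below was 0, or 0 to 2 with 1 library left out. The 2 came without control replicate 1, where 49% of tested genes lay below, against 26.8% with all libraries. Bcl6, Maf, Tox, Tox2 and Pou2af1 kept a positive difference under all 14 alternatives, with ranges of 0.467 to 0.960, 0.922 to 1.596, 0.726 to 1.27, 0.610 to 0.961 and 0.765 to 1.12. Bcl6, Maf and Tox have gene lengths of 6700, 8241 and 7609 bases, where the median over tested genes was 3643. With a gene length trend removed, their differences fell to 0.51, 0.99 and 0.73, from 0.66, 1.21 and 0.92. Those of Tox2 and Pou2af1, at 3401 and 2549 bases, rose to 0.83 and 1.03, from 0.73 and 0.83. With the replicate number as a block, 552 genes (4.54% of tested genes) and 1 factor (Maf, adjusted p = 0.011) passed. The deviations of same-numbered libraries had a correlation of -0.023 over genes, so the numbers are not shown to pair the libraries.

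Id2 reversed to 0.296 under quantile normalization, 0.141 in voom on recovered reads, 0.197 with the length trend removed and 0.141 in voom with at least 10 reads, and ran from -0.395 to 0.343 with 1 library left out. Id3 reversed to 0.392, 0.0696, 0.227 and 0.0708 under the same settings, and ran from -0.683 to 0.493. Voom moved the median of all genes to 0.152, and to 0.195 with at least 10 reads, against -0.013 with all libraries on log2(FPKM + 1), so the voom values of Id2 and Id3 lie below the median of all genes. The upper ends of the ranges of Bcl6, Maf, Tox and Tox2 given above also came from voom on recovered reads and hold that shift. Il2 reversed to 0.331 under quantile normalization, to 0.0215 with the length trend removed, and ran from -0.796 to 0.0984 with 1 library left out. Tcf4 reversed to -0.0142 with the length trend removed, and with 1 library left out Pou2f1 ran from -0.0236 to 0.935 and Ncor1 from -0.0562 to 1.42, both lowest without control replicate 2. The other 37 of 41 named genes outside the 9 kept their direction. The log2 ratio of Id3 to Id2 reversed to 0.0959 under quantile normalization and 0.0299 with the length trend removed, and ran from -0.287 to 0.148 with 1 library left out. The log2 ratio of Bcl6 to Prdm1 moved to -0.473 with 0.1 added to each FPKM. The log2 ratio of Tox to Tox2 moved to 0.121 under quantile normalization and -0.109 with the length trend removed. The cause was not tested. The ratio of Bcl6 to Prdm1 was not computed under quantile normalization or with the length trend removed, since both were run on genes past the level filter.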
